A study of Mus musculus with 4 samples.

Results

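The genes described here are 10 multi-copy mouse genes known mostly by numbered Gm symbols, whose transcripts appear at the 2-cell stage. They were chosen by name, as the listed genes Gm4340, Gm20767, Gm21761, Gm21312, Gm2022, Gm2016, Gm5039, Gm8300, Gm2035 and Gm2056. Of the 27115 rows of the deposited gene table, 4 carried a listed symbol (Gm4340, Gm21312, Gm21761 and Gm20767). The other 6 were present under newer symbols of the Eif1ad family and were matched by Ensembl identifier. Gm8300 is listed there as Eif1ad8, Gm2016 as Eif1ad3, Gm2022 as Eif1ad4, Gm2035 as Eif1ad14, Gm2056 as Eif1ad11 and Gm5039 as Eif1ad15. All 10 passed the filter on low counts that left 16801 genes for testing. The study compared bulk RNA of mouse 2-cell embryos cultured in vitro and taken on day 2, with 2 libraries labelled Trim75 OE (overexpression) and 2 control libraries labelled WT. Neither the strain nor how Trim75 was delivered is given in the labels, and no treatment other than culture is named for either group.

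The 2-cell stage is when a mouse embryo starts to transcribe its own genome while stored maternal RNA is removed. Dux, a double homeodomain transcription factor, binds and activates a set of genes at this stage, and many of them, such as Zscan4 and Tcstv genes, lie in tandem arrays of near-identical copies. Numerous transcripts of this stage also begin inside long terminal repeats of the endogenous retrovirus MERVL. Near-identical copies pose a counting problem, since a read can match several of them equally well, so sums over copies are given beside single rows. If every match of such a read was counted, a sum holds that read more than once.

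In GENCODE M21 (GRCm38, the mm10 assembly), the 10 genes lay in 3 clusters and all were annotated as protein coding. Gm21312 (chr10:104177024-104179491) and Gm4340 (chr10:104194042-104196522) lay on the plus strand of chromosome 10, among 7 near-identical copies. Gm21761 (chr13:119912095-119929272, minus strand) and Gm20767 (chr13:120140246-120155335, plus strand) lay on chromosome 13, in the region of the Tcstv genes. The 6 Eif1ad genes lay on chromosome 12, from Eif1ad8 (chr12:87514316-87518266, plus strand) to Eif1ad15 (chr12:88320122-88324026, minus strand).

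The chromosome 10 pair had coding sequences of 804 bases in Gm4340 and 792 bases in Gm21312, with 0 mismatches and 12 gap bases between them. These stretches are shown because they hold the only coding difference of the pair, and capitals mark the bases that Gm4340 has in addition. The gap falls inside a run of AGC and AGA triplets, so its exact placement is arbitrary. The stretch of Gm4340 is chr10:104196055-104196114 and that of Gm21312 is chr10:104179036-104179083, both on the plus strand of GRCm38.

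Gm4340: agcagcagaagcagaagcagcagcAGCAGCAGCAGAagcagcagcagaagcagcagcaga
Gm21312: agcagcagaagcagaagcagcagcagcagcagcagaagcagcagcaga

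The chromosome 13 pair, with 513 coding bases in Gm21761 and 507 in Gm20767, differed by 9 mismatches and 6 gap bases. The stretch around that gap is shown because it can tell a read of one gene from a read of the other, with the additional bases of Gm21761 in capitals. It is chr13:119912389-119912442 on the minus strand for Gm21761 and chr13:120154937-120154984 on the plus strand for Gm20767 (GRCm38).

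Gm21761: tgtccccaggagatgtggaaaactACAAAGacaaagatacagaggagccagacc
Gm20767: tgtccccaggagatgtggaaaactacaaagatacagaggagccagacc

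RefSeq promoter windows (GRCm38.p6, 250 bases before to 50 after the annotated start) were given for 3 of the 10 genes, namely Gm4340, Gm21312 and Gm21761. They are shown because Gm4340 and Gm21312 shared one window base for base (300 of 300 positions), so a single line stands for both. The window of Gm4340 is chr10:104193792-104194091 on the plus strand. The window of Gm21761 is chr13:119913419-119913718 on the minus strand, at a RefSeq start that lies inside the longer GENCODE gene. Capitals mark GGATTA, the core of homeodomain motifs of the Otx and Obox type, or its reverse complement.

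Gm4340 promoter: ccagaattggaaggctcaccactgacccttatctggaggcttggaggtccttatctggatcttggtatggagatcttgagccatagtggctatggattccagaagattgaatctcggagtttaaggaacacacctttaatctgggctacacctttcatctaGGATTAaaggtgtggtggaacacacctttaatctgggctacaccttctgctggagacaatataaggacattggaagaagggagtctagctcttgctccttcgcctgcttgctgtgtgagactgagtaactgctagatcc
Gm21761 promoter: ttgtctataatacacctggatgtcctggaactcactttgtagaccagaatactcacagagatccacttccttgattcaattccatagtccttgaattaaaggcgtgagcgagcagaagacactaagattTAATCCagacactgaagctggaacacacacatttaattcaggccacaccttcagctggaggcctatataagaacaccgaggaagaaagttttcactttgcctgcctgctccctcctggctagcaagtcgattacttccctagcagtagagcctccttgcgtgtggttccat

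GGATTA was searched on both strands and was found 1 time in each of the 3 windows, against 7.06% of all 32851 RefSeq promoters of that length holding it. The consensus motif of Dux was also searched on both strands, and it was found in none of the 3 windows and in 0.0335% of all promoters. TATAAA was found in none of the 3 windows and in 13.6% of all promoters. A match here describes letters in a window and not a bound site, and no match says only that these letters are not in it. The windows of 4 further copies on chromosome 10 (Gm20765, Gm21293, Gm21304 and Gm8764) were identical to that of Gm4340 at 299 of 300 positions.

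How much of each transcript could be told apart from all other annotated transcripts differed widely among the genes. Of the 150-base windows along its transcript, Gm21312 had 0% that occurred in no other gene, and Gm4340 had 10.3%. Gm21761 had 71.6% and Gm20767 had 72.8% of such windows. Among the Eif1ad genes, Eif1ad3 had the lowest share at 56.3%, and Eif1ad15 and Eif1ad8 had the highest at 99.0% and 97.0%. These shares rest on annotated transcripts, and many Eif1ad copies are annotated with coding sequence only. Windows in the untranslated regions of Eif1ad15 and Eif1ad8 thus had fewer annotated copies to match. A read of 50 bases is less specific, with 1.2% of windows unique in Gm4340, 2.8% in Eif1ad4 and 82.7% in Eif1ad15. The row of Gm21312 therefore cannot be read as that locus alone, although it held 1059 and 1457 reads in the Trim75 OE libraries and 350 and 667 in the control libraries. None of its windows was unique at any of the 3 lengths, so reads that also match other copies were probably counted in its row. How such reads were assigned or divided among copies is not given in the sources used here.

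**Figure D1:**
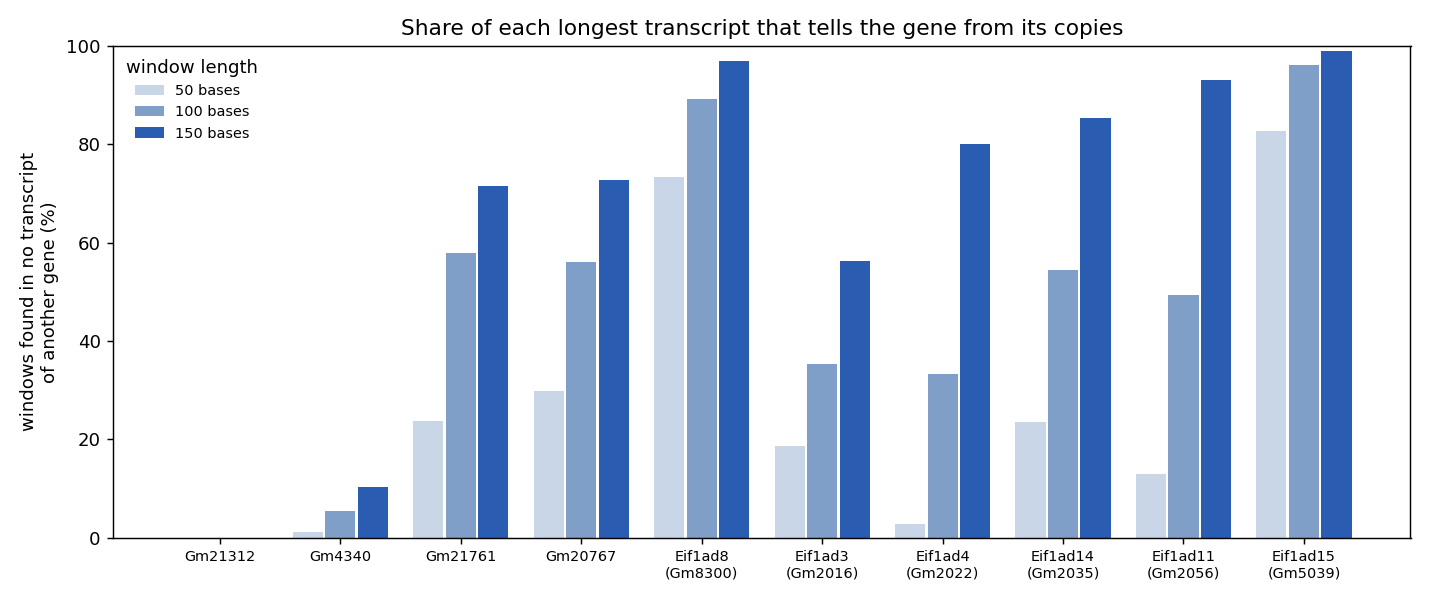
Bars give the percentage of 50-, 100- and 150-base windows along each gene's longest transcript that occur in no transcript of another gene. Gm21312 sits at 0% for all 3 window lengths, and Eif1ad15 and Eif1ad8 reach 99.0% and 97.0% at 150 bases.

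The libraries held between 9965081 and 14599670 counted reads, with 13349188 and 11124411 in Trim75 OE and 9965081 and 14599670 in control. Trim75 itself, the check of the label, had 12091 and 10537 reads in Trim75 OE embryos and 1773 and 1703 in control embryos, a log2 fold change of 2.73 ± 0.28 (SE). The edgeR quasi-likelihood test called 0 of 16801 genes at an adjusted p of 0.05, Trim75 included (adjusted p = 0.321), while 1888 genes (11.2%) had an unadjusted p under 0.05. DESeq2, run as an alternative, called 885 of 16075 genes, or 5.51%. Nothing in the labels says whether the 2 libraries per group are from different embryo pools. The p-values then reflect only how far these libraries vary, which can be technical variation. The control titles carry the tag L2C, which the Trim75 OE titles lack, and the library numbers run separately per group, so a batch or a difference in stage cannot be told apart from Trim75. In bulk RNA, fewer cells with a transcript and less of it per cell cannot be told apart either. Markers of other cells the samples could hold were also read. Of 9 cumulus markers 8 had a row and 1 was tested. Has2, Ptx3 and Fshr had 0 reads in both Trim75 OE libraries and at most 3 in a control library. Vcan had 7 and 13 reads in Trim75 OE and 2 and 2 in control, and Cd44 had 6 and 4 in Trim75 OE and 2 and 1 in control. In the libraries with the higher sums, most of the level came from Tnfaip6, with 0 and 136 reads in Trim75 OE and 124 and 3 in control, and from Ptgs2, with 0 and 71 in Trim75 OE and 2 and 0 in control. The cumulus markers summed to 1.60 and 21.1 CPM in Trim75 OE and to 13.2 and 0.96 CPM in control. Of 7 sperm markers only Prm2 had a row, with 77 and 39 reads in Trim75 OE and 207 and 0 reads in control. Of 14 oocyte-stored genes 7 were higher and 7 lower by sign, with a median log2 fold change of -0.02. DESeq2 called 2 of the 14 as higher (Oog1 and Bmp15), against 3.78% of all genes. It called 1 of the 14 as lower (H1f8), against 1.73% of all genes. An unadjusted p under 0.05 in edgeR was found for 4 of the 14, against 11.2% of all genes. The part of all these markers in the results below was not tested.

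The clearest difference among the 10 genes was in the chromosome 10 pair, whose values were higher in both Trim75 OE libraries than in both control libraries. Both genes resemble Alyref, which encodes an adaptor for the export of mRNA from the nucleus, and the transcript of Gm4340 aligned to it at 85.5% over 505 bases. Gm4340 had 2021 and 2277 reads in the Trim75 OE libraries, against 606 and 993 in the control libraries. As CPM, counts scaled to library size with TMM factors, this was 154 and 214 CPM in Trim75 OE and 58.5 and 68.1 CPM in control. The lowest Trim75 OE value was above the highest control value by more than the gap within either group. The means were 184 ± 42.6 CPM in Trim75 OE and 63.3 ± 6.80 CPM in control (SD, n = 2 each), a log2 fold change of 1.54 ± 0.31 (SE). The edgeR quasi-likelihood test gave an adjusted p of 0.321 over all genes, above the threshold, and the adjusted p in DESeq2 was 0.00485. Over all alternatives, leaving out a library included, its adjusted p ran from 0.00485 to 0.903 and its log2 fold change from 1.28 to 1.73. Gm4340 was the only listed gene called by DESeq2, against 3.78% of all genes called as higher in that test.

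Gm21312 gave 80.5 and 136.9 CPM in Trim75 OE and 33.8 and 45.7 CPM in control, again with no overlap between the groups. Its means were 109 ± 39.9 CPM in Trim75 OE and 39.8 ± 8.46 CPM in control (SD, n = 2 each). The log2 fold change was 1.45 ± 0.43 (SE), with an adjusted p of 0.353 in edgeR and 0.0764 in DESeq2, both above the threshold. The row of Gm4340 held 1.91 and 1.56 times the reads of Gm21312 in the Trim75 OE libraries and 1.73 and 1.49 times in the control libraries, so this ratio overlapped between groups. Summed, the pair stood at 234 and 351 CPM in Trim75 OE and at 92.2 and 114 CPM in control. The sum was 2.84-fold higher in Trim75 OE, a log2 fold change of 1.51, and no p is given for it because it was formed from chosen members. Reads of the pair can match both genes, so the rows may not be 2 independent measurements.

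All 7 near-identical copies on chromosome 10 were higher in both Trim75 OE libraries, with a median log2 fold change of 1.42. Against this stood 24% of all genes tested with both Trim75 OE libraries above both controls, and a median log2 fold change of 0.03. The 5 copies that were not listed (Gm20765, Gm21304, Gm6763, Gm8764 and Gm21293) had log2 fold changes between 1.27 and 1.44, and none passed either test. Apart from Gm4340, the 6 remaining copies had annotated transcripts identical over 1246 bases. Their rows held 696 to 1067 and 1099 to 1522 reads in the 2 Trim75 OE libraries, against 242 to 375 and 513 to 753 reads in the control libraries. In each library the lowest of these was Gm6763, whose span is overlapped by Gm21293 on the same strand. Because reads from identical copies cannot be told apart by sequence, their number is not a count of loci that differed.

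**Figure D2:**
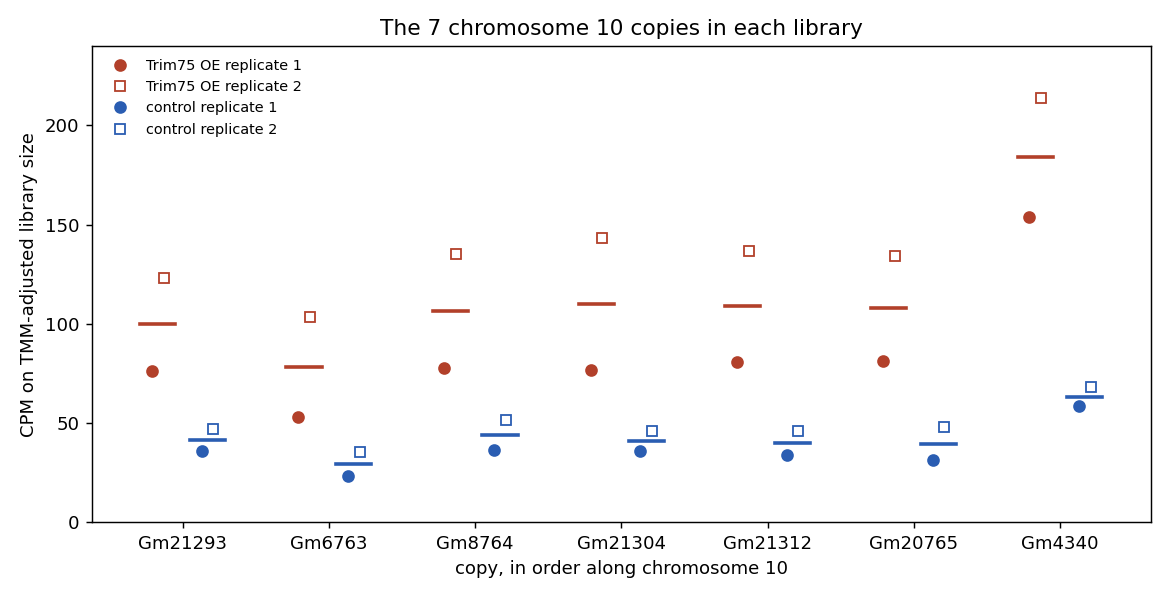
Expression of the 7 near-identical chromosome 10 copies in CPM, with a point per library, a bar at each group mean, and Trim75 OE (red) left of control (blue). For every copy both Trim75 OE points lie above both control points, and Gm4340 is the highest copy in each group, with means of 184 CPM in Trim75 OE and 63.3 CPM in control.

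A further 15 rows aligned less closely to the pair, at 90% identity or more over at least 300 bases, and lay elsewhere. Of these 12 were tested, 10 had a positive log2 fold change, against 51.3% of all genes tested. In 4 of the 12 (33.3%) both Trim75 OE libraries were above both controls, against 24% of all genes. The one with the most reads was Gm4850, a processed pseudogene on chromosome 1, at 214 ± 50.2 CPM in Trim75 OE and 134 ± 22.0 CPM in control (SD, n = 2 each), with a log2 fold change of 0.67 and an adjusted p in DESeq2 of 0.389. Alyref was chosen after its values were seen. It averaged 112 ± 4.98 CPM in Trim75 OE and 252 ± 28.6 CPM in control (SD, n = 2 each), a log2 fold change of -1.16 ± 0.24 (SE), with an adjusted p of 0.321 in edgeR and 0.0096 in DESeq2. The sign of Alyref was the opposite of that of the pair. Alyref2, also named after its values were seen, aligned to Gm4340 at 81.7% over 471 bases. It was low, at 4.87 and 9.02 CPM in Trim75 OE and 2.41 and 9.05 CPM in control. Its log2 fold change was 0.27, with an adjusted p of 0.985 in DESeq2. Summed over all 22 similar rows, with the pair itself and Gm4850 of chromosome 1 included, the log2 fold change was 1.20.

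The chromosome 13 pair did not pass a test in either direction. Both transcripts are related to Tcstv1 and its neighbours, genes named for their transcripts at the 2-cell stage and in embryonic stem cells. The transcripts of Gm21761 and Gm20767 aligned to each other at 98.4% over 1374 bases. Gm21761 had 2850 and 3464 reads in the Trim75 OE libraries and 2446 and 3577 in the control libraries, or 217 and 325 CPM in Trim75 OE and 236 and 245 CPM in control. The first Trim75 OE library was below both controls and the second above both. Its log2 fold change was 0.17 ± 0.29 (SE), with an adjusted p of 0.948 in edgeR. Gm20767 had 107 and 105 CPM in Trim75 OE and 75.5 and 103 CPM in control. The groups were apart by a small gap only, and the log2 fold change was 0.25 ± 0.31 (SE) with an adjusted p of 0.908.

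The sum of the chromosome 13 pair was 324 and 430.5 CPM in Trim75 OE and 311 and 348 CPM in control, with overlapping groups and a log2 fold change of 0.19. Without Trim75 OE replicate 2 it was -0.02, so the sign of this sum rested on that library. Adding the 5 similar rows of the region (Tcstv1, Tcstv3, AF067061, B020031M17Rik and Gm21818) brought it to 0.09. Of those 5, 3 had a positive log2 fold change and 2 a negative one, from 0.74 for AF067061 to -0.70 for Gm21818. The opening 187 bases of Gm20767 also aligned at 98.4% to Gm44660 and at 97.3% to Gm38947. The opening 106 bases of Gm4340 aligned to Gm21761 at 96.2%, but this stretch is not particular to these clusters. The opening of the Gm4340 transcript aligned over 103 to 116 bases to 92 other annotated genes, at 85.8% to 97.2% identity, among them Atf7ip and Limch1.

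The 6 Eif1ad genes on chromosome 12 split evenly, with 3 higher and 3 lower in Trim75 OE by sign and none passing a test. They are copies of Eif1a, which encodes a translation initiation factor that helps the small ribosomal subunit to bind and scan mRNA. The coding sequence of Eif1ad3 was identical to those of the other 5 at 97.5% to 98.8% of its 432 bases. Eif1ad15 had 1575 and 1455 reads in the Trim75 OE libraries and 459 and 1120 in the control libraries, or 120 and 137 CPM in Trim75 OE and 44.3 and 76.8 CPM in control. The groups did not overlap, with means of 128 ± 11.99 CPM in Trim75 OE and 60.5 ± 23.0 CPM in control (SD, n = 2 each). Its log2 fold change was 1.08 ± 0.39 (SE), with an adjusted p of 0.434 in edgeR and 0.209 in DESeq2. This gene also had the highest share of windows found in no annotated transcript of another gene. Copies annotated without untranslated regions can raise that share, so its row is not shown to be that locus alone.

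Eif1ad3 had 231 and 227 CPM in Trim75 OE and 48.3 and 208 CPM in control. The Trim75 OE libraries were close together, while the control libraries were far apart. The log2 fold change was 0.84 ± 0.72 (SE) with an adjusted p of 0.832 in edgeR, and leaving out a control library moved it to 0.13 or to 2.24. Eif1ad11 had 28.7 and 37.2 CPM in Trim75 OE and 12.3 and 26.0 CPM in control, a log2 fold change of 0.79 ± 0.66 (SE), which leaving out a control library moved to 0.33 or 1.43. Eif1ad8 had 97.0 and 119 CPM in Trim75 OE and 66.7 and 169 CPM in control, a log2 fold change of -0.13 ± 0.53 (SE). For Eif1ad8 and Eif1ad4 both Trim75 OE libraries lay between the controls. Eif1ad4 had 31.2 and 36.0 CPM in Trim75 OE and 20.8 and 57.7 CPM in control, a log2 fold change of -0.23 ± 0.66 (SE). Eif1ad14 had 13.2 and 22.6 CPM in Trim75 OE and 25.3 and 22.5 CPM in control, a log2 fold change of -0.42 ± 0.65 (SE).

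The spread of the Eif1ad genes came mainly from the control group. Control replicate 1 stood below control replicate 2 for 5 of the 6, by a log2 ratio from -0.79 for Eif1ad15 to -2.11 for Eif1ad3, and Eif1ad14 had 0.17. The median absolute log2 ratio between the control libraries over all genes tested was 0.74, and between the Trim75 OE libraries it was 0.56. Summed, the 6 stood at 521 and 579 CPM in Trim75 OE and at 218 and 561 CPM in control, with a log2 fold change of 0.50. Without control replicate 1 it was -0.04, and without control replicate 2 it was 1.34, so a control library decided its direction. Control replicate 1 was also the library with the fewest reads (9965081), and the part of this in the result was not tested. For the chromosome 10 pair the ratio of the control libraries was smaller, at -0.22 for Gm4340 and -0.44 for Gm21312.

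**Figure D3:**
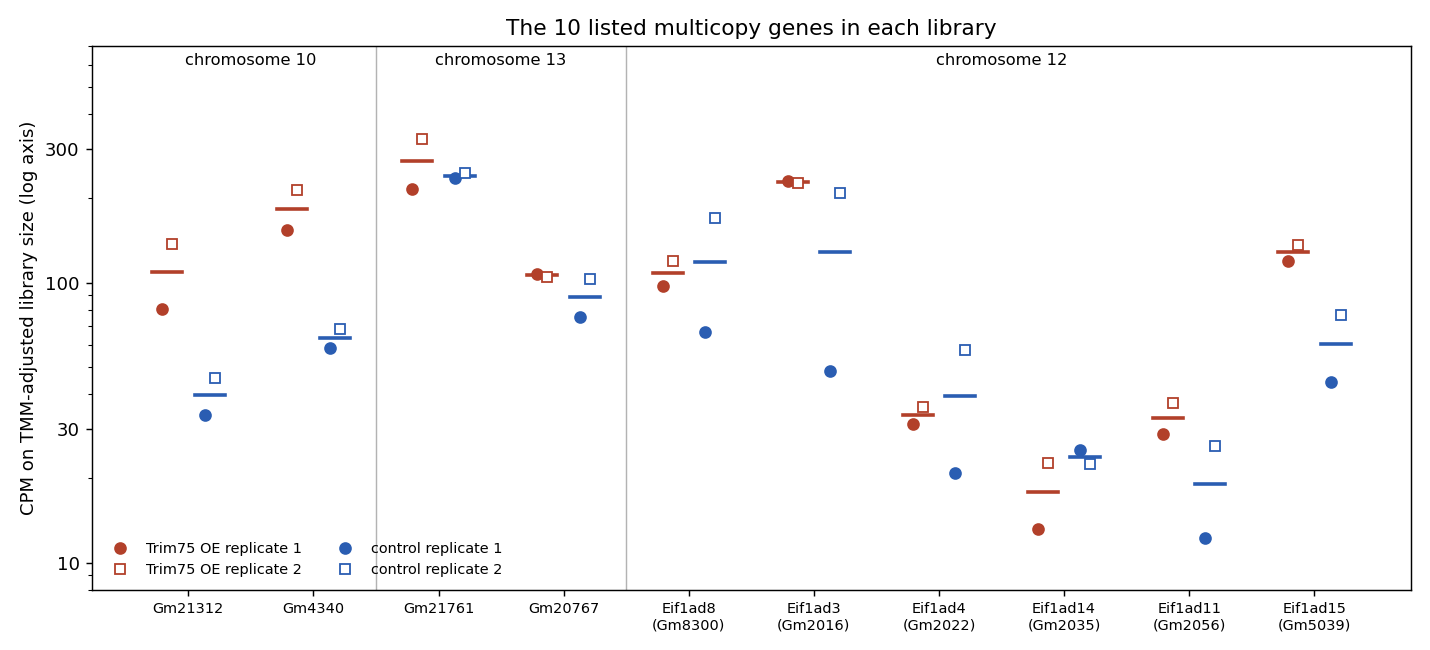
Expression of the 10 genes in CPM on a log axis, with a point per library, a bar at each group mean, and Trim75 OE (red) left of control (blue). The groups are widest apart for Gm4340 and Gm21312, and control replicate 1 lies far below control replicate 2 for Eif1ad3 (48.3 against 208 CPM).

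Counted over the 10 genes, 7 had a positive log2 fold change and 3 a negative one, with a median of 0.52. Positive values were found for 51.3% of all genes tested. In 6 of the 10 both Trim75 OE libraries were above both controls, against 24% of all genes, and in none were both below, against 19.6% of all genes. Unadjusted p-values under 0.05 were found for Gm4340, Gm21312 and Eif1ad15, against 7.71% of all genes with such a p and a positive value. With a library left out, the log2 fold change ran from 1.28 to 1.73 for Gm4340 and from 1.02 to 1.76 for Gm21312. For Eif1ad15 it ran from 0.73 to 1.53. Under RLE scaling and in robust edgeR, 2 of the 10 had an unadjusted p under 0.05. The 10 include near-identical copies whose reads may be shared, so these counts may not rest on 10 separate measurements. The 10 genes together gave 1079 and 1360.2 CPM in Trim75 OE and 621 and 1022 CPM in control, a log2 fold change of 0.57. The 4 genes found by their Gm symbols gave 558 and 781 CPM in Trim75 OE and 404 and 462 CPM in control, a log2 fold change of 0.63, or 1.55-fold.

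**Figure D4:**
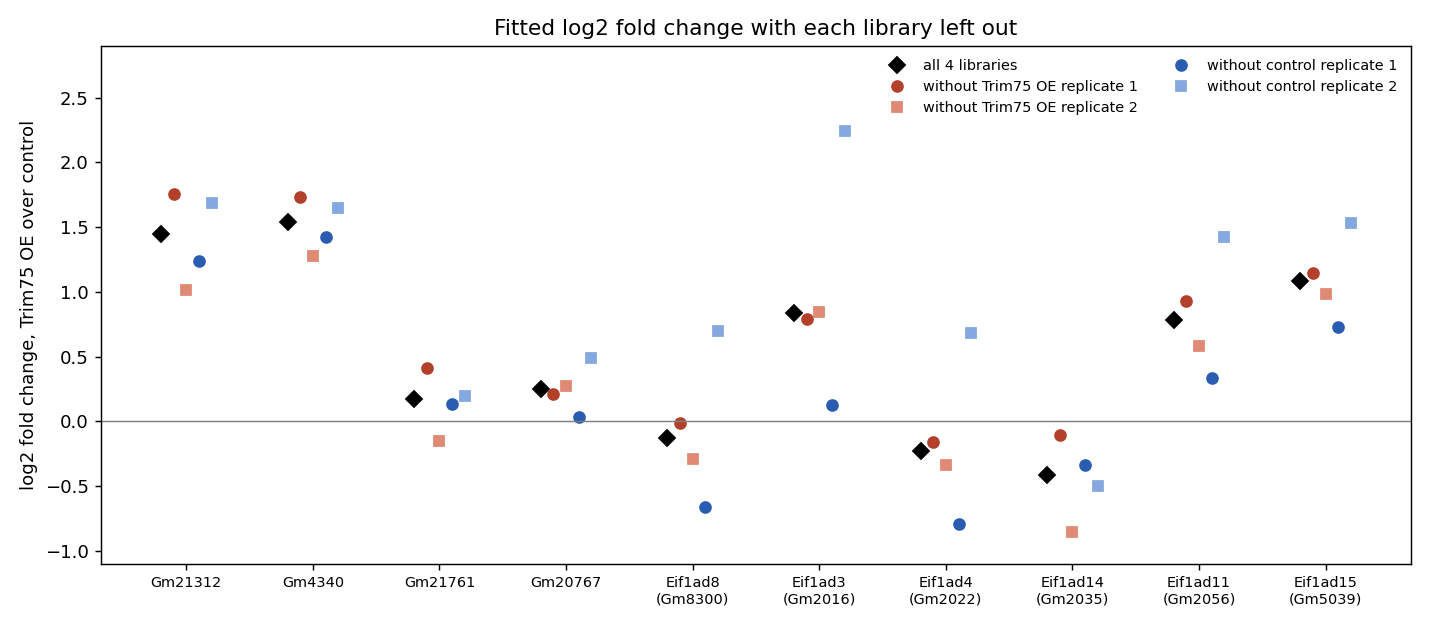
Fitted log2 fold change of each gene, Trim75 OE over control, with all 4 libraries (black diamonds) and with each library left out in turn (coloured points). Gm4340 stays between 1.28 and 1.73 and Gm21312 between 1.02 and 1.76, whereas Eif1ad3 runs from 0.13 to 2.24 and Eif1ad8 from -0.66 to 0.70.

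Levels were compared between genes in the deposited FPKM values (reads scaled for exon length and library total). In Trim75 OE embryos Gm21761 had the highest mean level at 191 ± 50.4 FPKM, followed by Gm4340 at 137 ± 28.9 FPKM and Eif1ad3 at 126 ± 4.31 FPKM (SD, n = 2 each). Gm21312 came next at 81.4 ± 28.3 FPKM, and the others ran from Eif1ad4 at 74.9 ± 6.04 FPKM through Eif1ad11, Gm20767, Eif1ad15 and Eif1ad8 to Eif1ad14 at 39.8 ± 14.1 FPKM. Only the step from Eif1ad3 to Gm21312 exceeded the sum of both SDs among neighbours in this order. In control embryos Gm21761 was again highest at 178 ± 0.23 FPKM, and the step down to Eif1ad4 at 91.1 ± 58.4 FPKM was the only one larger than both SDs together. Gm4340 ranked 7 of 10 in control embryos at 49.4 ± 3.91 FPKM, and Gm21312 ranked 10 of 10 at 31.3 ± 5.79 FPKM. Reads of these 2 rows can match other copies, so their ranks in both groups are of rows and not of single loci. The models of Eif1ad4, Eif1ad14 and Eif1ad11 hold 435 bases, the coding length only, so their FPKM is not on the same footing as that of genes with annotated untranslated regions.

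Other genes on a list drawn up for the Dux programme were of mixed sign. The list was not restricted to targets of Dux. It also held Duxbl1 (log2 fold change -0.86), Nelfa (-0.42), Dppa2 (-0.41) and Dppa4 (0.07). Of 35 listed names, which hold Dux under both of its symbols, 34 had a row and 33 were tested, with 19 higher and 14 lower by sign. In 6 (18.2%) both Trim75 OE libraries were above both controls, including Gm6763, itself one of the chromosome 10 copies, against 24% of all genes tested. In 4 both were below, against 19.6% of all genes. None passed the edgeR threshold or that of DESeq2, 2 had an unadjusted p under 0.05 (11.2% of all genes did), and the median log2 fold change was 0.09. Those with the highest mean CPM, not scaled for length, were AF067063, Tcstv1, Slc34a2 and Zscan4d. AF067063, a gene of the Tcstv region, averaged 539 ± 5.24 CPM in Trim75 OE and 677 ± 189 CPM in control, and Tcstv1 averaged 426 ± 99.9 CPM in Trim75 OE and 341 ± 133 CPM in control (SD, n = 2 each). Zscan4d, of a family that acts on telomeres and is transcribed at this stage, had a log2 fold change of 0.38, and Slc34a2, which encodes a sodium-phosphate cotransporter, had -0.88 ± 0.33 (SE) with an adjusted p of 0.442 in edgeR. Dux itself is listed under the symbol Duxf3 and had 24 and 0 reads in the Trim75 OE libraries and 4 and 0 in the control libraries, too few to be tested.

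Rows similar to Eif1a were also followed from a list of names. Of 12 names 11 had a row, and 9 of these had a positive log2 fold change, against 51.3% of all genes tested. Gm2042 and Gm10436 (listed as Pramel51) stood in that list although they are related to the PRAME family and not to Eif1a. Both are among the 9 with a positive value. Gm2042 was the only one of the list called by DESeq2 (adjusted p = 0.00345), so no Eif1a-like row of it was called. In that test 3.78% of all genes were called as higher. Gm2042 stood at 1308 ± 6.54 CPM in Trim75 OE and 686 ± 8.61 CPM in control (SD, n = 2 each). Among the Eif1a-like rows, Eif1ad7, Eif1ad2, Eif1ad6, Eif1ad10 and Eif1ad16 had log2 fold changes from 0.49 to 0.93, and Eif1ad17 had -0.29. Eif1ax, the X-linked relative, had 1.23, Eif1a had 0.80 and Eif1ad, a separate gene of like name, had -0.56, and none of the 3 passed a test. Over all 17 Eif1ad rows on chromosome 12, 16 were tested and 12 had a positive value, with a median of 0.51. Positive values were found for 51.3% of all genes tested. The 17 rows summed to 1462 and 1654 CPM in Trim75 OE and to 652 and 1420 CPM in control. As for the 6 listed genes, control replicate 1 was thus far below control replicate 2.

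Genes within 500000 bases of the clusters included further copies, so they were counted with and without similar rows. Of 49 tested neighbours on chromosome 12, 24 were higher and 25 lower by sign, with a median log2 fold change of 0.00, and without similar rows 14 of 38 were higher and 24 lower, with a median of -0.14. Among the 49, 14 (28.6%) had both Trim75 OE libraries above both controls, against 24% of all genes tested. In 9 both were below, against 19.6% of all genes. DESeq2 called 3 as higher and 0 as lower, against 3.78% and 1.73% of all genes. None of the 49 passed in edgeR, and 6 had an unadjusted p under 0.05, against 11.2% of all genes. Of 24 tested neighbours on chromosome 13, 11 were higher and 13 lower, with a median of -0.07, and without similar rows 8 of 19 were higher and 11 lower. In 4 of the 24 (16.7%) both Trim75 OE libraries were above both controls, and in 5 both were below. On chromosome 12 the neighbours with at least 20 CPM ran from Oog1, an oocyte-stored gene of the PRAME-like family, at 1.16 to Alkbh1, which encodes a nucleic acid demethylase, at -1.23. On chromosome 13 they ran from 4833420G17Rik at 1.13 to Gm21818 at -0.70. On chromosome 10, 5 of the 6 tested neighbours were the copies described above. Without similar rows 2 neighbours were left there, and 1 was tested. Its log2 fold change was -2.26, with both Trim75 OE libraries below both controls. The level was low, as the 2 summed to 2.81 and 1.22 CPM in Trim75 OE and to 4.63 and 12.3 CPM in control.

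The genes whose values over the 4 libraries were most like each cluster's sum were found by the mean absolute difference of centred log2 CPM among 7483 tested genes with at least 20 CPM (7479 for chromosome 12). For the chromosome 10 pair these were Cnot6l, a deadenylase subunit, Rbpms2, an RNA-binding protein, and Parn, a poly(A)-specific ribonuclease, with differences of 0.060, 0.063 and 0.066. For the 6 Eif1ad genes they were Zscan4a, Gm8545 and Golph3l, with 0.051, 0.053 and 0.058. For the chromosome 13 pair they were Trim33, Nlrp5 and Gm43423, with 0.016, 0.018 and 0.024. With 4 libraries, many genes come close to any pattern, so these are descriptions only.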

How the data were processed

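The data are 4 RNA-seq libraries of mouse 2-cell embryos, 2 labelled Trim75 OE and 2 control. Reads were trimmed, aligned and counted with tools that include Trim Galore, HISAT2 and featureCounts on mm10, per the submitters' processing notes. Tool versions, strandedness and the treatment of multi-mapped reads: not given in the sources used here. Per the file headers, the table holds raw read counts and FPKM values deposited by the authors, per gene and library. The total was 9965081 to 14599670 counted reads per library, and no molecular identifiers are described, so PCR copies are included.

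Counts were tested with edgeR (4.0.16) in R (4.3.3), with filterByExpr, TMM factors, glmQLFit and glmQLFTest on the group over all 16801 genes, p-values adjusted by Benjamini-Hochberg and called under 0.05. Standard errors are |log2 fold change| over the root of the quasi-F value. Sums over copies are of TMM-scaled CPM and carry no test. Positions and transcripts came from GENCODE M21, which held 26680 of 27115 identifiers, promoters from RefSeq (GRCm38.p6). Transcripts were aligned with blastn (2.17.0), and similar rows had at least 90% identity over at least 300 bases. Copies within 2000000 bases formed a cluster. Figures were drawn with matplotlib (3.10.9).

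The named genes were the 10 listed genes, Trim75, the 4 of highest mean CPM in the Dux programme list (none being called), similar rows and neighbours with at least 20 CPM, and the 3 genes closest to each cluster's sum; Alyref and others said to be so were chosen after their values were seen. The members and lists were chosen with earlier results of these data known. Alternatives were other scalings, filters and tools (DESeq2 1.42.0, limma 3.58.1 with voom or on log2(FPKM + 1) and log2(FPKM + 0.1)), robust fits, Trim75 left out of the library sizes, cluster sums fitted as 1 row, a replicate block and each library left out; similarity by transcript alignment was added after the data were seen, as no protein table was given. The single-cell data in the design text were not analysed here.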

Additional observations from a re-analysis of the deposited data

How the results depend on the processing

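The sum of the chromosome 10 pair kept a positive log2 fold change under every scaling, unit and library choice run, from 1.19 to 1.74 with a library left out. DESeq2 called 885 genes, against 0 in edgeR, and called 1 of the 10 listed genes (Gm4340). With each library left out, edgeR called 0 genes, with 414 to 3129 at an unadjusted p under 0.05, among them 0 to 4 of the 10 listed genes; RLE scaling and robust edgeR gave 2 of the 10, against 3. Leaving out a library moved the sum of the 4 symbol-matched genes between 0.37 and 0.83, that of the 10 genes between 0.24 and 0.97, that of the chromosome 12 genes between -0.038 (without control replicate 1) and 1.34 (without control replicate 2), and that of the chromosome 13 pair between -0.02 and 0.36. Single genes ran from -0.66 to 0.70 for Eif1ad8, from -0.79 to 0.69 for Eif1ad4 and from -0.15 to 0.41 for Gm21761, so their signs changed, and the cause was not tested. The numbers did not pair the libraries (r = 0.013 over 16801 genes). With the replicate block, edgeR called 0 genes and 0 listed genes, with 1342 genes at an unadjusted p under 0.05 against 1888 without it, and the log2 fold change of Eif1ad8 was 0.016. Other scalings moved the median log2 fold change of all genes to between -0.04 and 0.05. A group left with 1 library was assumed to vary like the other.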
